A study of Mus musculus with 6 samples.

Results

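Chemokines are small secreted proteins that steer cell movement, and their receptors are the seven-pass membrane proteins through which cells sense them. The genes described here are all protein-coding rows of the gene table whose symbol starts with Ccl, Cxcl, Ccr, Cxcr or Ackr and a number, together with Cx3cl1, Cx3cr1, Xcl1 and Xcr1. This gave 60 of 46983 genes in the table, of which 21930 are protein-coding, and they divide into 37 ligands and 23 receptors. The RNA came from aortic valves of wild-type mice of strain C57BL/6J, either pups on postnatal day 2 (PND2) or adults aged 4 months, and each age had 3 RNA-seq libraries. No mouse carried a transgene or received a treatment, and each library was made from the pooled valves of 5 to 6 animals. The comparison of the 2 ages asks how the transcripts of the valve differ between the growing leaflet and the adult one.

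The conserved cysteines near the amino end name the ligand classes (CC, CXC, CX3C and C), and most receptors bind ligands of a single class. Typical receptors signal through inhibitory G proteins and pull the cell toward the source of the ligand, whereas atypical receptors take up ligand without that signal and so shape its gradient. Some chemokines are made constantly and place resident cells, such as Cxcl12 and the lymphoid ligands Ccl19 and Ccl21, while many others are induced in inflammation and recruit leukocytes. In the heart, Cxcl12 and its receptors Cxcr4 and Ackr3 take part in the formation of vessels and of the semilunar valves, and macrophages that carry Cx3cr1 or Ccr2 reside in valve tissue.

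Values are RPKM, the reads on the exons of a gene per kilobase of exon, scaled to the library total, so levels can be compared between genes. The library totals ran from 23810507 to 38994657, and 1 read on 1 kilobase of exon was worth 0.0256 to 0.042 RPKM. Levels spread widely, with a mean of at least 100 RPKM at either age in 3 of the 60 genes, at least 5 RPKM in 18, and under 1 RPKM at both ages in 25. At least 0.1 RPKM in 3 libraries, the minimum for testing, was reached by 48 genes (32 ligands and 16 receptors). The other 12 were Ccl1, Ccl20, Ccl26, Cxcl3, Xcl1, Ccr1l1, Ccr3, Ccr4, Ccr6, Ccr8, Ccr9 and Cxcr1, with at most 18 reads and 0.528 RPKM in a library. Ccl1 and Ccl20 had no reads in any library, which allows up to 3 reads in each. Such limits cover counting error only.

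Log2 fold changes compare 4 months with PND2 on the log2(RPKM + 0.1) scale, which understates the change of genes with low values. A gene was called when its limma p, adjusted by the Benjamini-Hochberg method over all 25903 genes tested, was under 0.05. Of the 48 chemokine and receptor genes tested, 28 were called (58.3%), against 35.8% of all genes tested. Higher at 4 months were 19 of them, where 14.7% of all genes were, and lower were 9, where 21.1% of all genes were. With a fold change over 2 as well, 16 were higher and 8 lower, against 8.72% and 8.47% of all genes. The median log2 fold change was 0.50 over these 48 genes and -0.14 over all genes tested. When each library was scaled by its median log2 ratio, which moved the median of all genes by 0.12, 22 were higher and 6 lower.

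**Figure D1:**
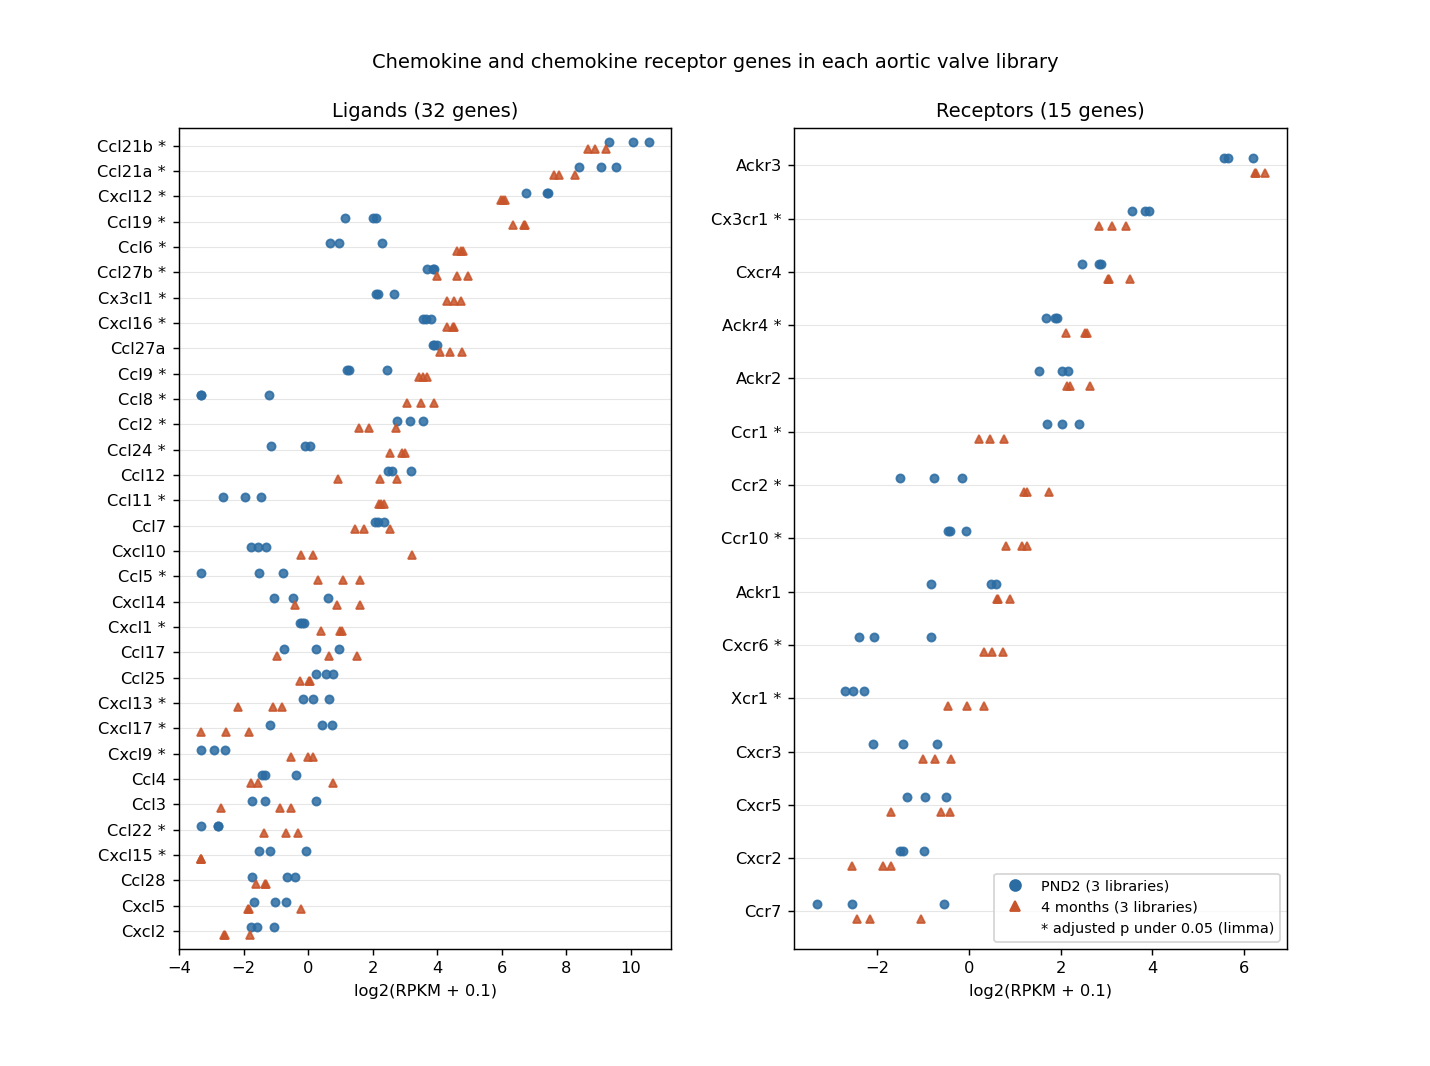
Levels of 32 ligand and 15 receptor genes that were tested, as log2(RPKM + 0.1) in each of the 3 PND2 libraries (circles) and the 3 libraries of 4 months (triangles), ordered by their higher mean. Asterisks mark the 27 of these genes called by limma, and in each of these the circles and triangles do not overlap.

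All 28 called genes kept the ages apart, with every library of 1 age above every library of the other. Among the 20 genes that were not called, 8 did so as well, and 50.0% of all genes tested kept the ages apart in this way. Counted over the 48 genes, all 4 month libraries lay above all PND2 libraries in 24, where 20.0% of all genes tested did so. They lay below in 12, where 29.9% of all genes did. Of 32 ligands tested 13 were called higher and 7 lower (62.5% called), and of 16 receptors 6 were higher and 2 lower (50.0%). Of all genes tested 35.8% were called, 14.7% higher and 21.1% lower. In bulk tissue, fewer cells of a type and less RNA per cell cannot be told apart, and this holds for each value below.

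**Figure D2:**
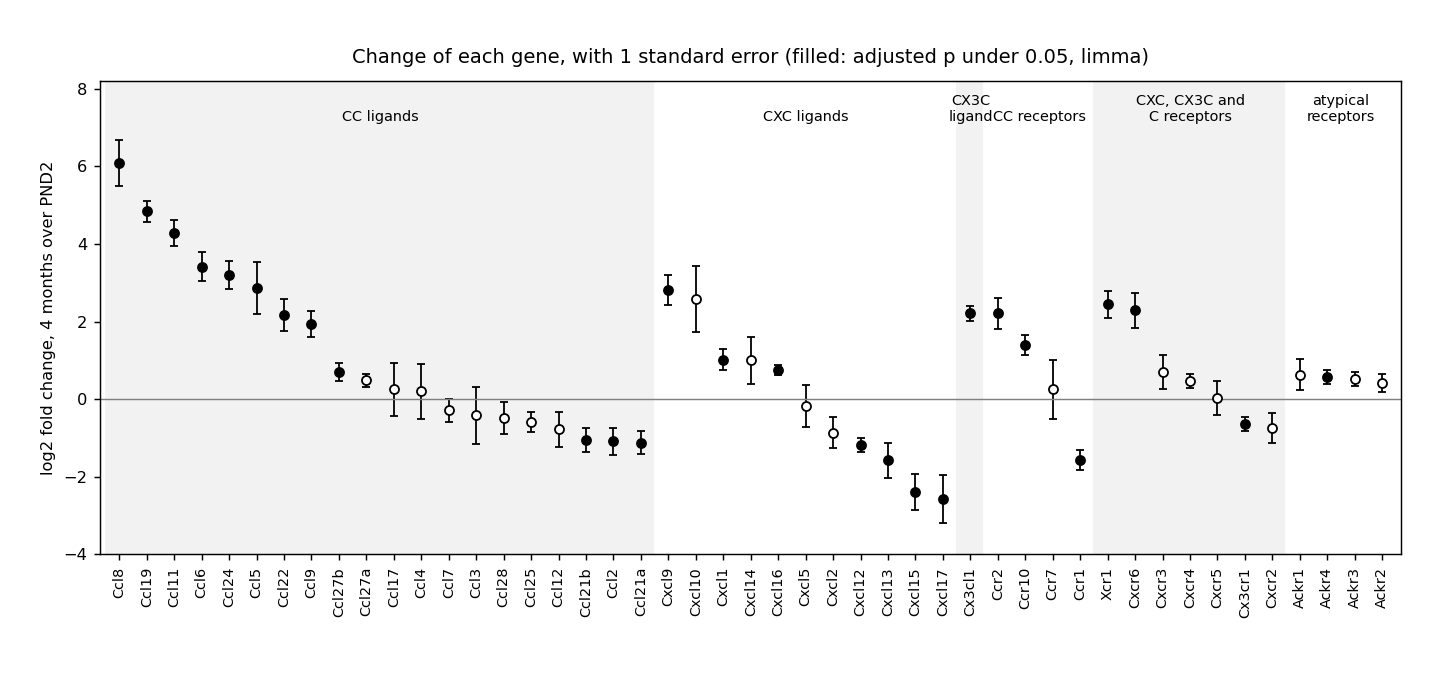
Log2 fold change of 47 genes tested, 4 months over PND2, with 1 standard error, grouped by class of ligand or receptor. Filled points have a limma adjusted p under 0.05, and they run from -2.57 for Cxcl17 to 6.09 for Ccl8.

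The most abundant chemokine transcripts were those of the homeostatic ligands Ccl21a and Ccl21b, which bind Ccr7 and in lymphoid tissue guide T cells and dendritic cells. Ccl21a measured 546, 336 and 744 RPKM in the 3 PND2 libraries and 198, 219 and 307 RPKM at 4 months. Ccl21b measured 1080, 641 and 1520 RPKM at PND2 and 409, 479 and 607 RPKM at 4 months. In both genes every PND2 library lay above every library of 4 months, and the PND2 means were 2.25 and 2.17 times those of 4 months. The log2 fold changes were -1.12 ± 0.30 (standard error, adjusted p = 0.0243) and -1.05 ± 0.31 (adjusted p = 0.0358). For Ccl21a the adjusted p lay between 0.0648 and 0.0708 without PND2 replicate 1 or 3 or without 4 month replicate 1 or 2. For Ccl21b it lay between 0.056 and 0.0982 without any library other than PND2 replicate 2, and it was 0.06 with median scaling.

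The values of Ccl21a and Ccl21b cannot be read as 2 separate genes. The mouse carries near-identical copies of them on chromosome 4, and the coding sequences below, from the GENCODE M21 transcripts, show the stretch around the first of their differences. Coding bases 39 to 129 are given, counted from 1 at the first coding base, and the capital is the base that differs.
Ccl21a: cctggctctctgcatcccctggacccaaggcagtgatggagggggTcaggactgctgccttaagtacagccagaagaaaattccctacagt
Ccl21b: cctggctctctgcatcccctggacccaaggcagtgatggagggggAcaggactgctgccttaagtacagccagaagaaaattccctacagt
Gm13304: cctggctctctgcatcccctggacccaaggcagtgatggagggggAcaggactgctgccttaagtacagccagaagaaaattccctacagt
Over the whole of 399 coding bases Ccl21a and Ccl21b differ by T84A and C194T, with the base of Ccl21a given first. The predicted genes Gm13304, Gm21541 and Gm10591 carry the coding sequence of Ccl21b without a difference. In stretches of 47 bases, the length of the first read of a pair after trimming, 100% of those in Ccl21b transcripts and 72.8% of those in Ccl21a transcripts also occur in another gene.

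Reads summed over genes came to 2.31 to 2.36 times the library totals, and whether a read was counted at several such copies was not tested. The 3 predicted copies followed the same course, with log2 fold changes of -1.05 to -1.06. Ccl21a lies on chromosome 4 of mm10 from 42772860 to 42773993 on the minus strand and Ccl21b from 42255767 to 42256432 on the plus strand. The 4 exons of Ccl21a fell alike, with PND2 means between 2.2 and 2.44 times those of 4 months. The fall is therefore reported for the Ccl21 copies as a group and is not assigned to any 1 of them.

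Markers of lymphatic endothelium, the best known source of Ccl21 outside lymph nodes, were read beside these genes. Of 6 markers tested 4 were lower at 4 months (Prox1, Flt4, Mmrn1 and Reln) and 0 higher, where 21.1% of all genes were lower. The summed level of all 6 went from between 135 and 275 RPKM to between 89 and 102 RPKM. Lyve1 made up the largest part of the PND2 sums, at 119, 39.3 and 55 RPKM. Neither Lyve1 nor Pdpn (25.6 ± 1.81 and 24.9 ± 4.59 RPKM) was called. Of the general endothelial markers 6 of 7 were lower, with summed levels of 347 to 476 RPKM at PND2 and 217 to 238 RPKM at 4 months. No marker of either list was at 0 at either age. Their part in the levels of Ccl21a and Ccl21b was not tested.

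Ccl19, the other ligand of Ccr7, moved in the opposite direction. It measured 2.1, 4.2 and 3.94 RPKM at PND2 and 104, 82 and 105 RPKM at 4 months, so that the lowest adult library stood far above the highest PND2 library. The means differed 28.4-fold and the log2 fold change was 4.84 ± 0.26 (adjusted p = 4.5e-05). Leaving out any 1 library gave 4.53 to 5.01. The adult level of Ccl19 was 96.8 ± 12.8 RPKM (SD, n = 3). Ccr7, the receptor of Ccl19 and Ccl21, was nearly undetected, with 45, 0 and 4 reads at PND2 and 9, 4 and 22 reads at 4 months, and was not called (log2 fold change 0.26 ± 0.76). T cell markers were higher at 4 months in 5 of 9 genes and lower in 1 (Lck). Of all genes tested 14.7% were higher and 21.1% lower. The summed levels of the T cell markers were 20.4 to 32.9 RPKM at PND2 and 42.8 to 59.4 RPKM at 4 months. Thy1, which fibroblasts also express, made up most of these sums, at 24.9 ± 5.88 RPKM and 44.3 ± 9.46 RPKM. Cd3e was at 0 in all 3 PND2 libraries.

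Ccl19 too has a copy, Gm2564, on the same chromosome from 42629719 to 42631714, and the first 60 coding bases show how the 2 differ. The capital marks the single differing base in 324 coding bases, T2C from Ccl19 to Gm2564, which falls in the first codon.
Ccl19: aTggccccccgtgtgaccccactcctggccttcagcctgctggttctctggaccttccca
Gm2564: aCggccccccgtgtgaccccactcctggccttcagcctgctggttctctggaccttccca
Of the 47-base stretches in Ccl19 transcripts 52.8% are shared with Gm2564 and 3 other genes, and Gm2564 rose with it from 6.37 ± 2.04 to 207 ± 30.2 RPKM (log2 fold change 5.04 ± 0.25, adjusted p = 3.49e-05). The first exon of Ccl19, at positions 42756270 to 42756577, shares 23.7% of its stretches and measured 1.54 ± 1.07 RPKM at PND2 and 57.4 ± 9.27 RPKM at 4 months.

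Cxcl13, which draws B cells through Cxcr5, was low and fell further. It measured 1, 0.798 and 1.46 RPKM at PND2 and 0.466, 0.365 and 0.12 RPKM at 4 months. The log2 fold change was -1.58 ± 0.44 (adjusted p = 0.0281), and the ages did not overlap. The adjusted p lay between 0.0507 and 0.0956 without PND2 replicate 1 or 3 or without 4 month replicate 2 or 3. Cxcr5 measured 0.437 ± 0.161 and 0.471 ± 0.233 RPKM and was not called. Of 4 B cell markers tested 1 (Blnk) was higher, where 14.7% of all genes were. The summed B cell markers overlapped between the ages, at 1.73 to 3.1 RPKM and 1.64 to 5.16 RPKM.

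Cxcl12, which binds Cxcr4 and Ackr3 and keeps progenitor cells and leukocytes in place, ranked next after the Ccl21 genes among the ligands at PND2 and below Ccl19 as well at 4 months. It lies on chromosome 6 of mm10 from 117168535 to 117181367 on the plus strand. Its values were 107, 173 and 171 RPKM at PND2 and 62.5, 68.2 and 65.7 RPKM at 4 months. The adult libraries were close to each other and all below the lowest PND2 library, and the PND2 mean was 2.3 times the adult mean (log2 fold change -1.17 ± 0.18, adjusted p = 0.00311).

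Its receptors did not fall with it. Cxcr4, the signaling receptor, measured 7.05, 7.21 and 5.44 RPKM at PND2 and 8.2, 8.04 and 11.3 RPKM at 4 months. Ackr3, the atypical receptor that removes Cxcl12, was the most abundant receptor of all, at 47, 49.8 and 72.8 RPKM at PND2 and 87.2, 75.1 and 76.6 RPKM at 4 months. In both genes all adult libraries lay above all PND2 libraries, but neither was called, with log2 fold changes of 0.47 ± 0.19 (adjusted p = 0.0921) and 0.52 ± 0.17 (adjusted p = 0.0513). Ackr3 was called without PND2 replicate 3, with a log2 fold change of 0.71 and an adjusted p of 0.00818, and after median scaling, with 0.64 and 0.0159.

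The exon table showed that the fall of Cxcl12 was not equal along the gene. Annotated transcripts share the first exons. They then end either in a long exon 3 (proximal end, positions 117173492 to 117175069) or in a last exon further on (distal end, 117178583 to 117181366). A short exon 3 (117173492 to 117173578) lies within the proximal end. The proximal values therefore need not come only from transcripts that end there. The proximal end measured 285, 401 and 425 RPKM at PND2 and 218, 227 and 225 RPKM at 4 months. The distal end measured 95.1, 182 and 157 RPKM at PND2 and 24.5, 32.2 and 29 RPKM at 4 months. Both ends were lower in every adult library, by 1.66 times in the mean at the proximal end and by 5.07 times at the distal end.

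Distal over proximal signal was 0.333, 0.455 and 0.37 at PND2 and 0.112, 0.142 and 0.129 at 4 months. The lowest ratio at PND2 was above the highest at 4 months, and the means of 0.386 ± 0.0622 and 0.128 ± 0.0151 (SD, n = 3) differed 3.02-fold. Within the distal region, the part between the start of a longer distal exon and the start of the shared one (117176086 to 117178582) fell less, by 2.37 times in the mean. Exon 2, which the transcripts share, stood at 2.06 ± 0.291 times the proximal end at PND2 and at 1.7 ± 0.109 times at 4 months. An exact permutation test (2-sided) of the distal over proximal ratio gave p = 0.1, the smallest that 3 libraries against 3 allow, and no call is made from single exons.

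**Figure D3:**
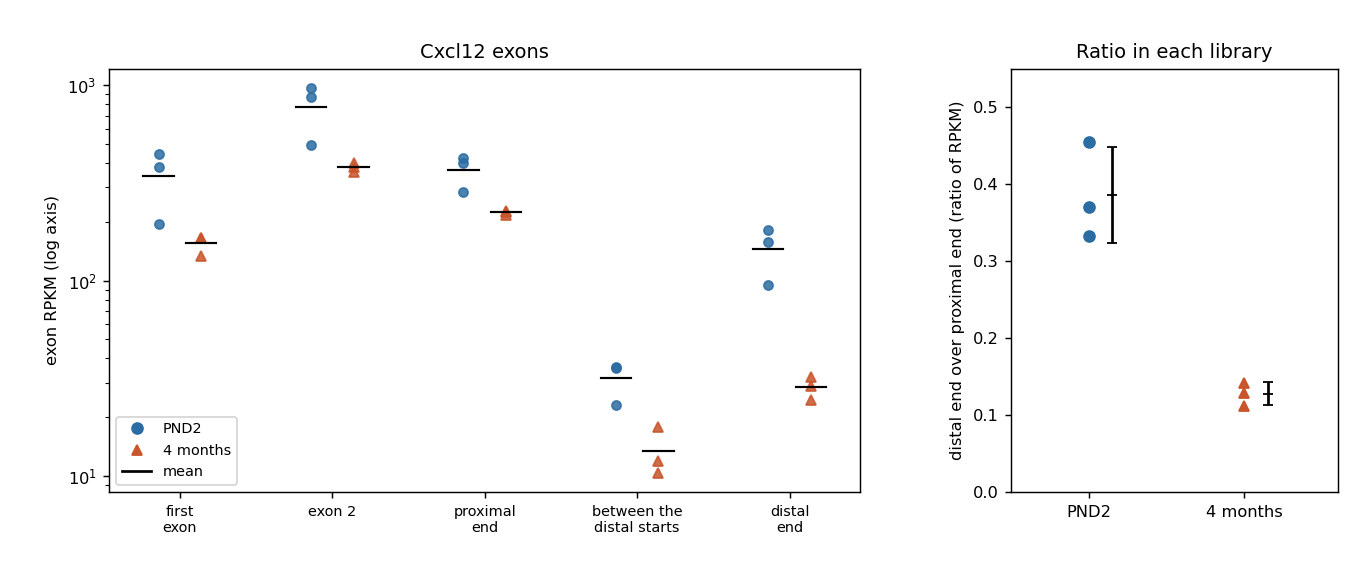
Left, RPKM (log axis) of 5 parts of Cxcl12 in each library, from the first exon to the distal end, with the mean as a bar. Right, the ratio of distal to proximal RPKM in each library, with the mean and SD beside the points: 0.386 at PND2 and 0.128 at 4 months.

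Cx3cl1 (fractalkine) and Cxcl16 differ from the other ligands in being anchored in the membrane on a stalk, from which they can be shed. Both rose. Cx3cl1, on chromosome 8 from 94772009 to 94782423, measured 4.16, 6.27 and 4.42 RPKM at PND2 and 23, 19.5 and 26.5 RPKM at 4 months. Cxcl16 measured 11.8, 12.6 and 14 RPKM at PND2 and 23, 19.6 and 22.4 RPKM at 4 months. Neither gene overlapped between the ages, and the log2 fold changes were 2.21 ± 0.19 (adjusted p = 0.00029) and 0.75 ± 0.12 (adjusted p = 0.00287). Cxcl16 shares exonic bases with Zmynd15 on the opposite strand. On its exons that overlap no other gene the log2 fold change was 0.76.

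Their receptors went separate ways. Cx3cr1, the receptor of Cx3cl1 and a gene of resident macrophages, fell from 15.1, 11.7 and 14.1 RPKM at PND2 to 10.7, 8.53 and 7.04 RPKM at 4 months. Cxcr6, the receptor of Cxcl16 on T cells, rose from 0.461, 0.138 and 0.0903 RPKM to 1.58, 1.31 and 1.15 RPKM. The log2 fold changes were -0.65 ± 0.18 (adjusted p = 0.0301) and 2.29 ± 0.45 (adjusted p = 0.00734), without overlap in either gene. The fall of Cx3cr1 had an adjusted p between 0.0757 and 0.0909 without PND2 replicate 1 or 3 or without 4 month replicate 2 or 3, and of 0.0534 after median scaling.

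Ccl2, Ccl7, Ccl8 and Ccl12, which are grouped here as ligands that attract monocytes, lie in the same cluster on chromosome 11. Ccl8 rose and Ccl2 fell. Ccl8 measured 0, 0 and 0.334 RPKM at PND2, from 0, 0 and 5 reads, and 11.1, 8.22 and 14.7 RPKM at 4 months. Ccl2 measured 11.7, 8.75 and 6.58 RPKM at PND2 and 2.85, 3.62 and 6.53 RPKM at 4 months. Ccl8 thus went from near absence to a level above that of Ccl2, with the largest log2 fold change of the genes tested here, 6.09 ± 0.59 (adjusted p = 0.00043), and 5.74 to 6.80 when any 1 library was left out. Ccl2 fell by 1.09 ± 0.34 on the log2 scale (adjusted p = 0.0404), with a narrow gap between the lowest PND2 library and the highest adult one. Its adjusted p lay between 0.0902 and 0.111 without PND2 replicate 1 or 2 or without 4 month replicate 1 or 2, and it was 0.0792 after median scaling.

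The other ligands of this group were not called. Ccl12 measured 9.07, 5.43 and 5.92 RPKM at PND2 and 4.59, 1.8 and 6.69 RPKM at 4 months, and Ccl7 measured 4.49 ± 0.418 and 3.84 ± 1.63 RPKM. Ccr2, the receptor of Ccl2 that brings monocytes out of the bone marrow, rose from 0.802, 0.492 and 0.251 RPKM to 3.25, 2.2 and 2.3 RPKM. Its log2 fold change was 2.21 ± 0.39 (adjusted p = 0.00472), and the ages did not overlap.

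Among the inflammatory CC ligands whose receptors include Ccr1, the rodent chemokines Ccl6 and Ccl9 and the T cell chemokine Ccl5 rose. Ccl6 measured 4.76, 1.83 and 1.5 RPKM at PND2 and 26.8, 27.7 and 24.6 RPKM at 4 months. Ccl9 measured 5.31, 2.32 and 2.18 RPKM at PND2 and 10.8, 12.9 and 11.8 RPKM at 4 months. In both, PND2 replicate 1 was the highest of its age and still well below the adult libraries, and the log2 fold changes were 3.42 ± 0.38 (adjusted p = 0.00077) and 1.94 ± 0.33 (adjusted p = 0.00396). Ccl5 measured 0.481, 0 and 0.249 RPKM at PND2 and 2.93, 1.14 and 2.02 RPKM at 4 months (log2 fold change 2.87 ± 0.67, adjusted p = 0.0152). Without 4 month replicate 3 its adjusted p was 0.0523. Ccl3 and Ccl4, from the same stretch of chromosome 11, stayed under 1 RPKM on average at both ages, overlapped between them and were not called.

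Their receptor Ccr1, carried by monocytes and neutrophils, fell while these ligands rose. Ccr1 measured 5.2, 3.99 and 3.15 RPKM at PND2 and 1.59, 1.28 and 1.07 RPKM at 4 months. Every adult library lay below every PND2 library, and the log2 fold change was -1.56 ± 0.26 (adjusted p = 0.00367).

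The eotaxins Ccl11 and Ccl24, which attract eosinophils through Ccr3, both rose. Ccl11 measured 0.261, 0.0606 and 0.158 RPKM at PND2 and 4.95, 4.7 and 4.44 RPKM at 4 months. Ccl24 measured 0.832, 0.354 and 0.95 RPKM at PND2 and 7.36, 7.88 and 5.66 RPKM at 4 months. The adult libraries varied little in either gene, and the log2 fold changes were 4.28 ± 0.34 (adjusted p = 0.00021) and 3.20 ± 0.35 (adjusted p = 0.00068). Their receptor Ccr3 was too low to test, with means of 0.0482 and 0.0783 RPKM.

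Markers of macrophages, which both make and receive many of these ligands, were higher at 4 months in 10 of 12 genes and lower in 0. Of all genes tested 14.7% were higher. The summed level of the macrophage markers was 383 to 430 RPKM at PND2 and 1160 to 1280 RPKM at 4 months. None of these markers was at 0 at either age. Mrc1 and Fcgr1 were the members of the list not called, at 22.7 ± 3.9 and 31.9 ± 5.05 RPKM for Mrc1 and 3.43 ± 0.623 and 3.87 ± 1.2 RPKM for Fcgr1. The macrophage marker Adgre1 rose from 7.7 ± 2.31 to 18.5 ± 1.62 RPKM, whereas Cx3cr1 and Ccr1 fell. The part of the macrophage markers in the chemokine results was not tested.

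Ccl22 and Ccl17 are the ligands of Ccr4, which marks several T cell subsets. Ccl22 measured 0.0441, 0 and 0.0441 RPKM at PND2 and 0.518, 0.289 and 0.698 RPKM at 4 months, a log2 fold change of 2.18 ± 0.41 (adjusted p = 0.0064). Ccl17 measured 0.5, 1.85 and 1.07 RPKM at PND2 and 1.46, 0.409 and 2.76 RPKM at 4 months, and the ages overlapped. Ccr4 itself was too low to test, with means of 0.0283 and 0.0165 RPKM.

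Ccl27a and Ccl27b, the ligands of Ccr10 best known from skin, are copies that differ by 3 of 360 coding bases (C177T, G297A and A343C from Ccl27a to Ccl27b). Ccl27a measured 15, 14.4 and 16 RPKM at PND2 and 27, 17 and 20.8 RPKM at 4 months. Ccl27b measured 14.7, 14.5 and 12.9 RPKM at PND2 and 31.1, 16 and 24.2 RPKM at 4 months. In both all adult libraries were higher, but replicate 2 of 4 months only slightly so. The log2 fold changes were 0.49 ± 0.17 (adjusted p = 0.0615, not called) and 0.71 ± 0.23 (adjusted p = 0.0469). For Ccl27b 98.7% of the 47-base stretches are shared, and its adjusted p lay between 0.0845 and 0.129 without any library other than 4 month replicate 2. Ccl27a was called without 4 month replicate 2, with a log2 fold change of 0.64 and an adjusted p of 0.0224, and after median scaling, with 0.61 and 0.0201. Ccl27a shares exonic bases with Il11ra1 on the opposite strand. On its exons that overlap no other gene the log2 fold change was 0.48. Exons of both genes differed. In Ccl27a, means at 41769467 to 41769654 went from 12.4 to 26.2 RPKM, and at 41773736 to 41773803 from 94.6 to 74.6 RPKM. In Ccl27b, 42655251 to 42655357 had 0.772 and 3.61 RPKM, and 42655499 to 42655631 had 32.8 and 52.4 RPKM.

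Ccr10 rose from 0.624, 0.854 and 0.653 RPKM at PND2 to 2.31, 2.12 and 1.66 RPKM at 4 months, without overlap (log2 fold change 1.39 ± 0.26, adjusted p = 0.00577). Ccl28, its other ligand, stayed at 0.46 ± 0.232 and 0.273 ± 0.0447 RPKM and was not called. Ccl25, which guides thymocytes and gut T cells through Ccr9, had 1.36 ± 0.274 RPKM at PND2 and 0.863 ± 0.108 RPKM at 4 months (not called, adjusted p = 0.128), and Ccr9 was too low to test.

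Cxcl9 and Cxcl10 are induced by interferon and attract activated T cells through Cxcr3. Cxcl9 measured 0.068, 0.0326 and 0 RPKM at PND2, from 8, 3 and 0 reads, and 0.586, 0.905 and 1.01 RPKM at 4 months. Cxcl10 measured 0.194, 0.306 and 0.243 RPKM at PND2 and 0.999, 0.765 and 9.25 RPKM at 4 months. Cxcl9 was alike in the 3 adult libraries, whereas replicate 3 stood about an order of magnitude above the other adult libraries for Cxcl10.

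The log2 fold changes were 2.81 ± 0.38 for Cxcl9 (adjusted p = 0.00164) and 2.59 ± 0.85 for Cxcl10, whose adjusted p rounds to 0.05 and was not under it. Without 4 month replicate 3, Cxcl10 had a log2 fold change of 1.5 and an adjusted p of 0.0298, and without 4 month replicate 2, 3.22 and 0.0356. Cxcl10 shares exonic bases with Art3 on the opposite strand. On its exons that overlap no other gene the log2 fold change was 2.67. Cxcr3 measured 0.304 ± 0.193 RPKM at PND2 and 0.516 ± 0.129 RPKM at 4 months, overlapped and was not called.

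The promoters of Cxcl9, Cxcl10 and Ccl19 were looked at because these genes all lay higher in every adult library, and those with a match are printed. RefSeq promoters (build GRCm38.p6, from 250 bases before the start of a gene to 50 after it) were found for 46 of the 60 genes and searched on both strands for the interferon-stimulated response element core GAAANNGAAA, the gamma-activated site core TTCNNNGAA and the NF-kappaB consensus. The 250 bases before the start are printed in the direction of transcription, with matches in capitals, for Cxcl10 at chr5:92348890-92349139 and Ccl19 at chr4:42756366-42756615, both on the minus strand.
Cxcl10: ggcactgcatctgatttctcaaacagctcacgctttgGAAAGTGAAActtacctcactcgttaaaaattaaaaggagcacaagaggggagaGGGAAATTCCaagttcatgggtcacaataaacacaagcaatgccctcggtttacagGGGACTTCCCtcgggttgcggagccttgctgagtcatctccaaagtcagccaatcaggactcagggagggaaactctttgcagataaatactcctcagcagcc
Ccl19: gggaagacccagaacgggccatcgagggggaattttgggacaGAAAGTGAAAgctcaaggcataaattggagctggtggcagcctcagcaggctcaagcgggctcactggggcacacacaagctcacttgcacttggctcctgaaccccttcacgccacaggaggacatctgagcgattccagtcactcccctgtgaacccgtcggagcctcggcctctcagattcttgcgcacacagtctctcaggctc
The first capitals in each are a GAAANNGAAA match with the same letters, GAAAGTGAAA, and the later ones in Cxcl10 are a pair of NF-kappaB matches. For Ccl19 the RefSeq start lies inside the Ensembl first exon that was counted (42756270 to 42756577). Most of the printed Ccl19 window, with its match, is therefore sequence of that exon and not upstream of it. The 46 genes had 53 promoters, of which 3 (of Ccl19, Cxcl10 and Cxcl14) held GAAANNGAAA. Of all 32851 RefSeq promoters searched 3.44% held it. The NF-kappaB consensus was in 10 of the 53, of Ackr2, Ccl20, Ccl27a, Ccl9, Ccr3, Ccr6, Cxcl1, Cxcl10, Cxcl2 and Cxcl3, and in 4.51% of all. TTCNNNGAA was in 4 of the 53, of Ccl17, Ccr1l1, Ccr6 and Cxcl14, and in 8.3% of all. The windows of Cxcl9, Ccl8, Ccl22 and Cx3cl1, which rose, held none of the 3 motifs, which says only that these letters are not there.

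The CXC ligands grouped here as attracting neutrophils were low at both ages and moved in different directions. Cxcl15 had 70, 16 and 21 reads at PND2 (0.844, 0.246 and 0.337 RPKM) and 0 reads in all 3 adult libraries, so that it was at least 9.8-fold lower at 4 months when 3 reads in each library are taken as the limit (adjusted p = 0.00704). When low values were floored at 10 reads, the limma log2 fold change of Cxcl15 was -1.04 and it was not called (adjusted p = 0.114). Cxcl1 rose from 0.807, 0.769 and 0.747 RPKM to 1.9, 1.23 and 1.97 RPKM (log2 fold change 1.02 ± 0.27, adjusted p = 0.0236). The call of Cxcl1 was lost without PND2 replicate 2 or 3 or 4 month replicate 1 or 3 (adjusted p between 0.0606 and 0.0836). Cxcl2 and Cxcl5 stayed below 0.8 RPKM in every library and were not called.

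The receptor Cxcr2 measured 0.31 ± 0.0857 RPKM at PND2 and 0.149 ± 0.0706 RPKM at 4 months and was not called (adjusted p = 0.177), and Cxcr1 was too low to test. All 5 neutrophil markers tested were lower at 4 months, where 21.1% of all genes were. The summed level over the list of 7 was 25.5 to 31.9 RPKM at PND2 and 0.588 to 1.36 RPKM at 4 months. Ngp was at 0 in all 3 adult libraries. The part of the neutrophil markers in these values was not tested.

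Cxcl17, a chemokine of mucosal surfaces, measured 1.25, 0.344 and 1.57 RPKM at PND2 and 0.0704, 0 and 0.182 RPKM at 4 months. The ages did not overlap, and the log2 fold change was -2.57 ± 0.62 (adjusted p = 0.0165), with an adjusted p of 0.0527 without PND2 replicate 1 and 0.0592 without PND2 replicate 3. With low values floored at 10 reads the log2 fold change of Cxcl17 was -1.0 and it was not called (limma adjusted p = 0.174). Cxcl14, made by fibroblasts and epithelia, measured 0.619, 1.42 and 0.375 RPKM at PND2 and 2.92, 0.645 and 1.76 RPKM at 4 months, overlapped and was not called.

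Xcr1, found on a class of dendritic cells that present antigen to cytotoxic T cells, rose from 0.104, 0.0736 and 0.0537 RPKM to 0.872, 0.622 and 1.16 RPKM (log2 fold change 2.45 ± 0.35, adjusted p = 0.00206). The lowest adult library was several times the highest PND2 library. Its ligand Xcl1 had no reads at PND2 and at most 0.528 RPKM at 4 months, too low to test. Dendritic cell markers were higher at 4 months in 3 of 7 genes and lower in 0, where 14.7% of all genes were higher. The summed levels of these markers rose from 6.15 to 7.55 RPKM at PND2 to 24.3 to 27.3 RPKM at 4 months. Clec10a made up the largest part of this rise, at 0.331 ± 0.104 and 11.3 ± 0.983 RPKM. Itgax and Cd209a were called as well, whereas Zbtb46 (4.56 ± 0.231 and 4.55 ± 0.448 RPKM), Flt3 and Batf3 were not. Clec9a, a marker of the same dendritic cell class as Xcr1, was not called, at 1.17 ± 0.281 and 1.64 ± 0.473 RPKM.

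The remaining atypical receptors are Ackr1, Ackr2 and Ackr4. Ackr4, which removes Ccl19, Ccl21 and Ccl25, measured 3.12, 3.69 and 3.57 RPKM at PND2 and 4.2, 5.67 and 5.83 RPKM at 4 months. Its log2 fold change of 0.57 ± 0.19 was called (adjusted p = 0.0495), but it shares exonic bases with Acad11 on the opposite strand, which rose by 1.21 ± 0.25. On the exons of Ackr4 that overlap no other gene, with overlapping exons left out whole, the log2 fold change was 0.23 (limma adjusted p = 0.455). The call was also lost without any library other than 4 month replicate 1, with adjusted p between 0.0851 and 0.153. Ackr1, which displays chemokines on venules and red cells, and Ackr2, which removes inflammatory CC ligands, were at 1.05 ± 0.512 and 3.7 ± 0.837 RPKM at PND2 and 1.55 ± 0.179 and 4.97 ± 0.981 RPKM at 4 months, and neither was called.

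Many of these genes arose by duplication and lie in clusters, in which calls were read in chromosomal order, with no test between neighbours. In the first cluster on chromosome 11 (82035571 to 82305690, 270 kb), the order is Ccl2, Ccl7, Ccl11, Ccl12, Ccl8 and Ccl1, and the rises of Ccl11 and Ccl8 alternate with Ccl7 and Ccl12, which were not called, and with Ccl2, which fell. In the second (83525778 to 83664683), Ccl5, Ccl9 and Ccl6 rose and the adjoining Ccl3 and Ccl4 were not called. On chromosome 9, from Ccr9 to Ccr2, Ccr1 fell among Cxcr6, Xcr1 and Ccr2, which rose. On chromosome 8, Ccl22 and Cx3cl1 rose within 66.4 kb that also hold Ccl17, which was not called.

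**Figure D4:**
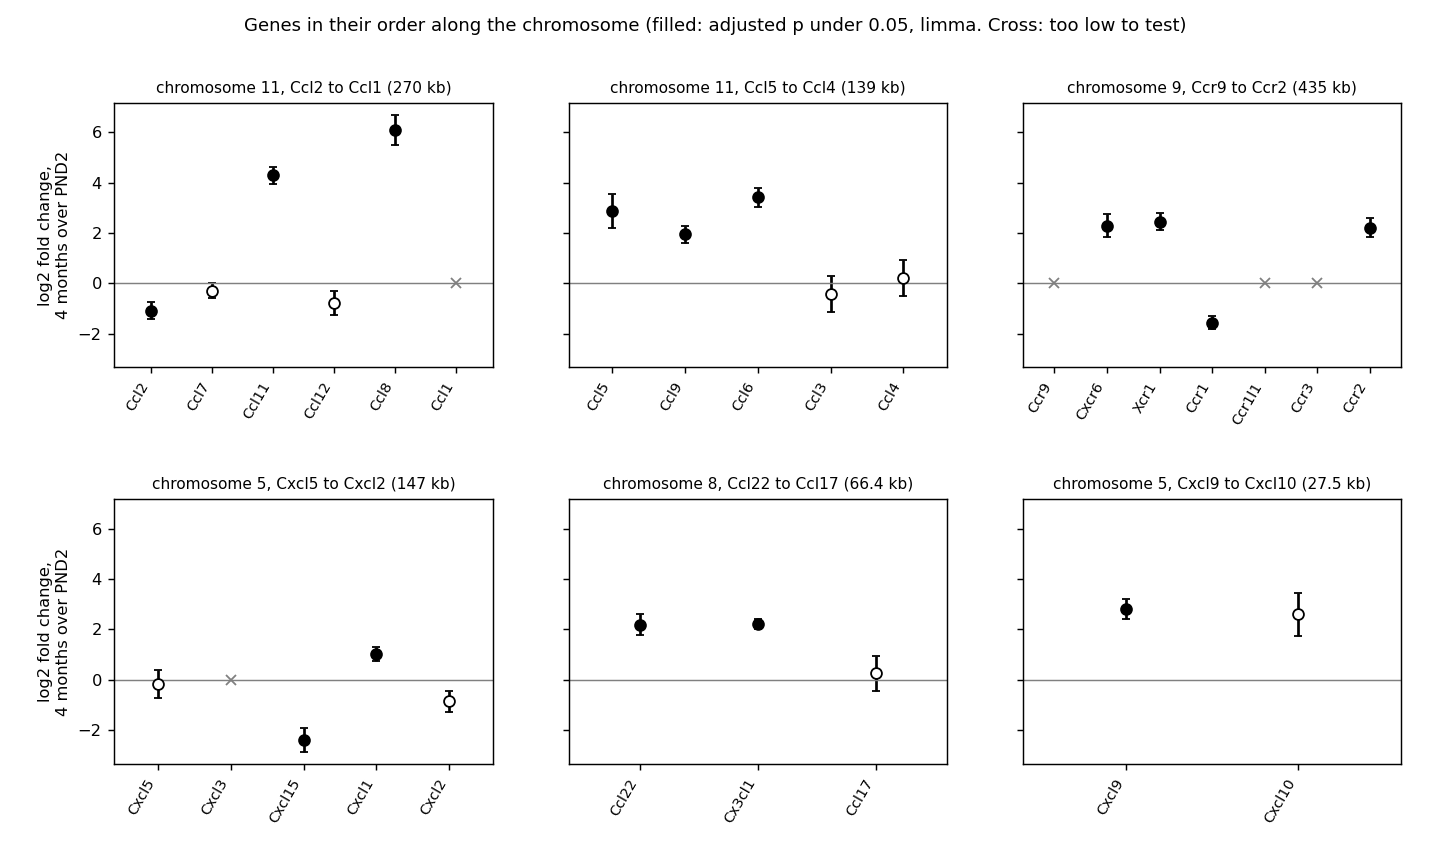
Log2 fold change, 4 months over PND2, with 1 standard error, for genes in their order along 6 clusters, with the span of each in kilobases. Filled points have a limma adjusted p under 0.05, open points do not, and crosses at 0 stand for genes too low to test: in the cluster from Ccl2 to Ccl1 the values run from -1.09 to 6.09.

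Other genes of chemokine biology were read from lists chosen with the family itself. Of 8 chemokine-related genes outside the family names, 3 rose and 2 fell, a share of 62.5% where 35.8% of all genes were called. Ccrl2, which binds chemerin without signaling, rose from 2.52 ± 0.159 to 11.1 ± 0.968 RPKM (log2 fold change 2.09 ± 0.15, adjusted p = 0.00012). Chemerin itself (Rarres2) measured 75.8, 65.1 and 71.6 RPKM at PND2 and 268, 172 and 210 RPKM at 4 months, a log2 fold change of 1.59. Cklf and Mif fell by 0.91 and 0.69 on the log2 scale (adjusted p = 0.0148 and 0.0269).

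Of 20 genes that carry the signal of chemokine receptors into the cell, 3 rose and 2 fell, a share of 25.0% where 35.8% of all genes were called. Dock2, which couples receptors to cell movement in leukocytes, rose from 0.614 ± 0.071 to 1.46 ± 0.278 RPKM, and the inhibitory G protein subunit Gnai1 rose from 19.5 ± 2.13 to 38 ± 5.65 RPKM. Gng2 fell from 13.5 ± 2.75 to 5.38 ± 1.4 RPKM, and Gnai3, the sister of Gnai1, fell from 77.4 ± 4.5 to 64.8 ± 1.68 RPKM (adjusted p = 0.0497). Leaving out 4 month replicate 1 lowered the count of 5 to 2, and leaving out 4 month replicate 3 lowered it to 3. Of 10 genes that switch receptors off, 5 rose and 0 fell (50.0% called). Of all genes tested 35.8% were called and 14.7% were higher. The largest rises of this list were those of the regulators Rgs18 and Rgs1, with log2 fold changes of 1.87 ± 0.33 and 1.86 ± 0.35. Without PND2 replicate 3 the count of calls in this list was 3.

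Further marker lists describe what else the valve libraries held. Fibroblast-like genes of valve interstitial cells were abundant at both ages, at a summed 6500 to 7150 RPKM and 8030 to 10100 RPKM, with 2 of 8 higher and 4 lower. Smooth muscle markers were higher in 5 of 6, at a summed 7380 to 8550 RPKM at PND2 and 16600 to 27600 RPKM at 4 months. Cardiomyocyte markers were lower in 3 of 6, at a summed 12300 to 15000 RPKM and 4190 to 7410 RPKM. Adipocyte markers were higher in 4 of 5 and mast cell markers lower in 4 of 6. Of all genes tested 14.7% were higher and 21.1% lower. Adipoq, the defining adipocyte gene, had means of 0.107 RPKM at PND2 and 70.0 RPKM at 4 months. It was highest in 4 month replicate 2, at 134 RPKM against 34.2 and 41.2 RPKM in the other libraries of that age. Xist ranged from 0.0457 to 109 RPKM at PND2 and from 0.154 to 110 RPKM at 4 months, so the pools differed in their share of females within each age. The part of these differences in the chemokine results was not tested.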

How the data were processed

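Total RNA of pooled aortic valves was sequenced by the authors as paired reads with a stranded kit, which were trimmed and aligned to mm10 with TopHat 2.1.0. Reads were counted with easyRNASeq 2.4.7 on Ensembl release 83, and the authors deposited RPKM for genes and for exons. Whether counting used strand, and whether totals count reads or pairs, is not stated. Whole reads (within 0.01) were recovered here from 100% of the deposited RPKM values.

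Genes with at least 0.1 RPKM in 3 libraries were compared without pairing, 3 libraries against 3, with limma 3.58.1 (R 4.3.3, trend, 2-sided) on log2(RPKM + 0.1), and called at an adjusted p under 0.05. Labels call the libraries biological replicates. Errors are SD unless named as standard errors. The step was run on simulated data in which every gene had the same dispersion and far fewer genes changed than were called here. That run does not show how the step performs on genes with a wider spread between replicates. Values are printed in every library for genes with a mean of at least 5 RPKM at either age or called with a fold over 2. In other lists the 2 largest rises and falls among the calls are named, and genes named beyond that were chosen after their values were seen. Genes and lists were chosen with earlier results of these data known. Alternatives were pseudocounts, filters, scalings, tests, only exons that overlap no other gene, a replicate block and each library left out. Protein sequences were not used here, and 1 gene that enters the counts is not reported here. Tables were made with Python 3.11.15 and pandas 2.3.3.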

Additional observations from a re-analysis of the deposited data

How the results depend on the processing

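Under 18 alternatives, 730 of 848 results for single genes kept direction and side of the threshold, and no called gene changed direction. Called in every alternative that included them were 8 genes (Ccl11, Ccl19, Ccr1, Ccr10, Cx3cl1, Cxcl16, Cxcl9 and Xcr1, of which Cxcl9 and Xcr1 were not in the fit with a filter of 1 RPKM), and 17 when the per-gene unequal-variance test is set aside. That test is the kind the authors used on log2 RPKM. It called 8 of the 28 genes, 7 higher and 1 lower, 7 of them with a fold over 2. In the lists of related, signaling and desensitization genes it called 2, 2 and 3. Among the genes it did not call were Ccl8 (adjusted p = 0.0536), Ccr2 (0.0784), Ccl6 (0.0822), Cxcl12 (0.107) and Cxcr6 (0.109). A pseudocount of 1 left 14 with a fold over 2, no trend left 5 lower and a floor of 10 reads left 3 lower. With a library left out, 20 to 24 were called, 19 to 22 with a fold over 2, 16 to 20 higher and 3 to 8 lower, and the lists held 4 to 5, 2 to 5 and 3 to 6. Among signaling genes voom called 8, and a filter of 1 RPKM left 3 desensitization genes. Replicate numbers did not pair the libraries (correlations of deviations 0.0439, -0.0608 and -0.16), and a replicate block called 23 genes, 16 higher and 7 lower (not Ackr4, Ccl2, Ccl27b, Cxcl1 or Cxcl13), and 3 signaling genes. Direction changed in 6 genes that were not called: without single libraries the log2 fold change ran from -0.32 to 0.93 for Ccl17, -0.83 to 0.25 for Ccl3, -0.62 to 0.66 for Ccl4, -0.33 to 1.06 for Ccr7, -0.72 to 0.11 for Cxcl5 and -0.22 to 0.43 for Cxcr5. Ccr7 was -0.00 with a pseudocount of 1 and -0.17 with a floor of 10 reads, and Cxcr5 -0.11 with voom. The cause was not tested. The Cxcl12 ratio of ages ran from 2.75 to 3.23 without single libraries, and 2 settings chosen after seeing the data gave 2.55 (longer distal exon) and 2.49 (against exon 2).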
